A study of Mus musculus with 13 samples.

Results

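The postsynaptic scaffold genes Dlg1, Dlg2, Dlg3, Dlg4, Shank1, Shank2, Shank3, Lrrc7 and Dlgap1 were followed through the first month of life in mouse cerebellum, with and without the RNA-binding protein Sam68. They were picked by gene symbol and make up 9 of the 22667 genes of the deposited expression table and 278 of the 283765 events of the deposited splicing table. Total cerebellar RNA of C57BL/6-background mice was sequenced in 13 libraries. Sam68 (gene Khdrbs1) knockout cerebella, called KO below, gave 3 libraries at P1 (postnatal day 1) and 3 at P10, and wild-type (WT) cerebella gave 2 at P1, 2 at P10 and 3 at P30. KO at P30 was not analysed here. The knockout allele and the tissue pooling are not described in the sources used here, and the labels do not say that libraries came from separate animals, so the p-values measure only the spread between these libraries.

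The Dlg proteins are membrane-associated guanylate kinases: PDZ domains in their first part hold the tails of glutamate receptors and other membrane proteins, and an SH3 and a guanylate kinase-like domain follow. Dlg4 encodes PSD-95, the best-known scaffold of excitatory synapses, and Dlg1 encodes SAP97. The guanylate kinase-like domain binds Dlgap1 (also called SAPAP or GKAP), which in turn binds the PDZ domain of the Shank proteins, which reach Homer and the actin cytoskeleton deeper in the synapse. Lrrc7 encodes densin, a leucine-rich repeat and PDZ protein that binds CaM kinase II and Shank. Transcripts of Dlg1 are known to differ by alternative insertions between the SH3 and guanylate kinase-like domains.

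Exons are shown by sequence where a called change or a match between paralogous genes makes them of use; 2 sets of exons recur in Dlg1, Dlg2 and Dlg3, though those of Dlg3 were not called. Sequences were read 5′ to 3′ from GENCODE M21 transcripts (GRCm38), found by the length of the exon and of the introns beside it; the Dlg1 exon of 97 nt matched on 1 of its introns and the others on both. The first set, on mm9, lies at chr16:31846923-31847019 in Dlg1, chr7:99565734-99565833 in Dlg2 and chrX:98003392-98003491 in Dlg3, all on the plus strand. Capitals mark bases of the Dlg1 and Dlg3 exons that align to the same base in the Dlg2 exon, and bases of the Dlg2 exon shared with both.
Dlg1 97 nt exon: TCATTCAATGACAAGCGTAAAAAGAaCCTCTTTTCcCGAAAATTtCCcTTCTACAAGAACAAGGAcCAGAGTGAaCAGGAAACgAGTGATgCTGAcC
Dlg2 100 nt exon: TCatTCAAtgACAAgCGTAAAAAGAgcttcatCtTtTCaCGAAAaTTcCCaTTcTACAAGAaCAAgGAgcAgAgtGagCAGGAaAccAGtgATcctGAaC
Dlg3 100 nt exon: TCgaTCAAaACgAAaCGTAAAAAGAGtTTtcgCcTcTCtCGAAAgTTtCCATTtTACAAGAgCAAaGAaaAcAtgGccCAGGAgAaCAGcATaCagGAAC

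The second set follows downstream at chr16:31847722-31847755 in Dlg1, chr7:99566598-99566643 in Dlg2 and chrX:98005201-98005246 in Dlg3, with capitals used in the same way.
Dlg1 34 nt exon: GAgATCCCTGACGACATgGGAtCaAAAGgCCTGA
Dlg2 46 nt exon: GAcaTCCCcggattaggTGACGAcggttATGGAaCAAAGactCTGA
Dlg3 46 nt exon: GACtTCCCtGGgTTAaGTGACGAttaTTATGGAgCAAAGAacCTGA

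The Dlg1 97 nt and Dlg2 100 nt exons shared 88 bases, 88% of the longer exon, which was the closest of the 120 pairs of tested exons from different Dlg or different Shank genes. The Dlg2 and Dlg3 exons of 46 nt shared 36 bases (78.3%), the Dlg2 and Dlg3 exons of 100 nt shared 70 bases, and the Dlg1 34 nt and Dlg2 46 nt exons shared 29 bases (63% of the longer). The Dlg1 34 nt and Dlg3 46 nt exons shared 26 bases (56.5%). The Dlg1 34 nt exon aligned to a 42 nt exon of Dlg2 at 57.1%, so identity alone does not place it in the second set. Shank1 and Shank3 each hold an alternative coding exon of 24 nt, at chr7:51599668-51599691 and chr15:89368446-89368469, both on the plus strand. These aligned at 16 of 24 bases, marked in capitals below, and a 27 nt exon of Shank1 aligned to the Shank3 exon at 17 bases, so identity does not single out this pair.
Shank1 24 nt exon: tCTcCCccTgGaAGAAGAAAAttG
Shank3 24 nt exon: CTtCCatTcGgAGAAGAAAAgggG

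Depth ranged from 10538517 to 18423325 junction reads over simple exon events per library, and 10520 to 14976 genes had a cRPKM (reads scaled to transcript length, corrected for mappable positions, and to library depth) above 0, the lowest in KO P1 library 15. Khdrbs1 itself was at 4.22 to 8.50 cRPKM in KO P1 and 1.28 to 3.59 cRPKM in KO P10 libraries, against 56.5 and 74.4 cRPKM in WT P1 and 61.2 and 56.2 cRPKM in WT P10 libraries. Marker genes of cell types moved with age: the summed level of 5 of 5 oligodendrocyte markers was 36.9 to 53.5 cRPKM in WT P1, 1557 to 1902 cRPKM in WT P10 and 3492 to 4353 cRPKM in WT P30 libraries. The 6 of 6 mature granule cell markers summed to 180 to 284, 784 to 960 and 1578 to 1826 cRPKM at the same ages. The 6 of 6 markers of granule cell precursors summed to 101 to 227, 178 to 241 and 5.54 to 8.67 cRPKM. The 6 of 6 Purkinje cell markers summed to 531 to 755, 1534 to 1748 and 2269 to 2798 cRPKM, and the 4 of 4 markers of inhibitory interneurons to 102 to 117, 174 to 231 and 455 to 519 cRPKM. The 4 of 4 choroid plexus markers varied within ages, at 3.61 to 13.8, 1.94 to 277 and 2.93 to 1114 cRPKM. The 6 of 6 midbrain and caudal hindbrain markers summed to 12.4 to 14.7, 0 to 0.23 and 2.47 to 4.91 cRPKM. The part of these shifts in the age differences given below was not tested, and in whole tissue fewer cells of a type and less RNA per cell cannot be told apart.

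Between P1 and P30 in wild-type cerebellum 5 of the 9 scaffold genes rose, Dlgap1, Dlg1, Shank3, Shank2 and Dlg2, while Dlg3, Dlg4, Shank1 and Lrrc7 did not pass the test. In WT P30 against WT P1, 5 of the 9 genes were higher and 0 lower at adjusted p below 0.05 (limma on log2(cRPKM + 1), Benjamini-Hochberg over 14063 genes), which is 55.6% of them. Of all tested genes, 25.4% were called in either direction, 9.66% higher and 15.8% lower. Their median log2 fold change was 0.68, against -0.13 over all tested genes. Summed over the 9 genes, expression averaged 209 ± 3.9 cRPKM at P1 (SD, n = 2), 267 ± 43 at P10 (n = 2) and 376 ± 12 at P30 (n = 3) in wild type.

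**Figure D1:**
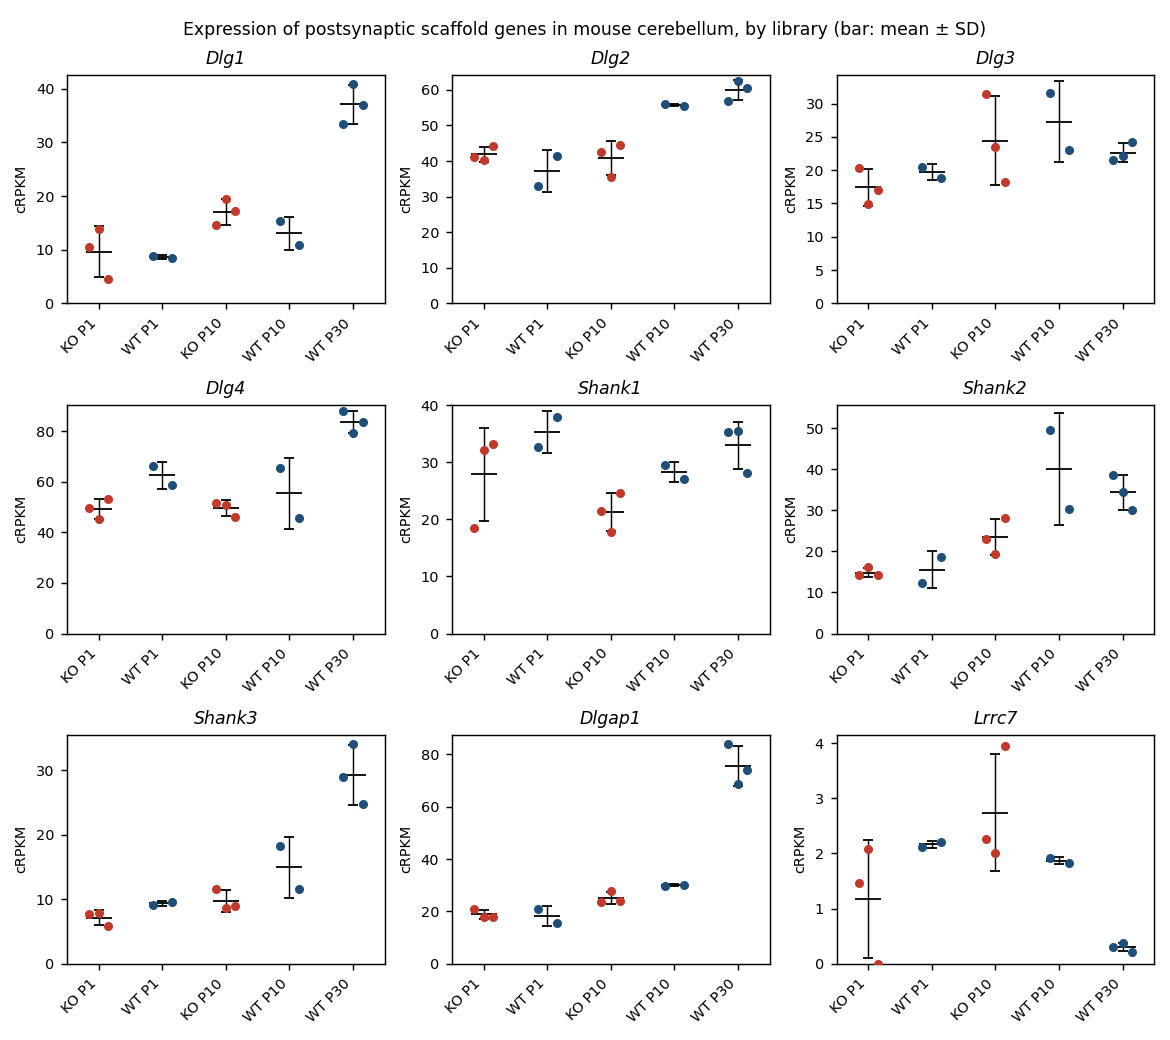
Expression of the 9 scaffold genes in cRPKM (y axis, linear, from 0) in every library of 5 groups (x axis); red points are KO and blue points WT libraries, and black bars are group means ± SD. Dlgap1, Dlg1 and Shank3 lie highest in WT P30, and Lrrc7 lies lowest there.

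Dlgap1, the adaptor between PSD-95 and Shank, was at 20.8 and 15.6 cRPKM in WT P1, 29.7 and 30.2 in WT P10 and 83.9, 68.5 and 74.1 in WT P30 libraries. The 3 ages did not overlap. Its log2 fold change was 2.01 ± 0.17 (SE, limma adjusted p = 6.39e-06) in P30 against P1 and 1.30 ± 0.17 (adjusted p = 0.00037) in P30 against P10. From P1 to P10 the difference of 0.70 did not pass (limma adjusted p = 0.0636), although junction reads, scaled to depth and used instead of cRPKM, gave 0.69 with adjusted p = 0.00352.

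Among the Dlg genes, Dlg1 showed the largest change with age. It was at 8.89 and 8.42 cRPKM in WT P1, 15.3 and 10.9 in WT P10 and 33.5, 40.9 and 37.0 in WT P30 libraries. All P30 libraries lay above all younger ones, and the log2 fold change of P30 against P1 was 1.98 ± 0.35 (limma adjusted p = 0.00116). Its share of the summed Dlg1 to Dlg4 expression averaged 6.75% in WT P1, 8.59% in WT P10 and 18.2% in WT P30. Against P10, Dlg1 in P30 was higher by 1.45 (limma adjusted p = 0.0146), a call that was lost without WT P10 library 6 (adjusted p = 0.126) and without WT P30 library 2 (adjusted p = 0.0529).

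Dlg4 was at 66.4 and 58.8 cRPKM in WT P1, 65.3 and 45.6 in WT P10 and 88.1, 79.2 and 83.8 in WT P30 libraries, and was the highest of the 9 genes by mean in 4 of the 5 groups. It was higher in P30 than in P10 by 0.61 ± 0.16 on the log2 scale (limma adjusted p = 0.0259), a call that was lost without WT P10 library 6 and without any 1 of the 3 WT P30 libraries (log2 0.35 to 0.64), and in a fit of the 2 groups alone (adjusted p = 0.0629). Against P1 the difference of 0.41 did not pass (limma adjusted p = 0.0855), but did with quantile normalization (0.0435), in a fit of the 2 groups alone (0.0224) and on junction reads (0.0252). Dlg2 was at 33.0 and 41.4 cRPKM in WT P1, 55.9 and 55.6 in WT P10, and 56.9, 62.5 and 60.4 in WT P30 libraries. P30 exceeded P1 by 0.68 ± 0.15 (limma adjusted p = 0.00538), lost without WT P1 library 8 (adjusted p = 0.0601). Dlg3, the X-linked member, stayed between 18.8 and 31.6 cRPKM in the WT libraries and passed no comparison; its log2 difference between P30 and P1 was 0.19 ± 0.24.

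The 3 Shank genes, master scaffolds that tie Dlgap proteins to Homer, differed in course. Shank3 was at 9.13 and 9.63 cRPKM in WT P1, 18.3 and 11.6 in WT P10 and 29.0, 34.1 and 24.8 in WT P30 libraries. The ages did not overlap, with a log2 fold change of 1.53 ± 0.25 (limma adjusted p = 0.00078) in P30 against P1. In P30 against P10 it was 0.94 (limma adjusted p = 0.0263), which was lost without WT P10 library 6, WT P30 library 1 or WT P30 library 2 (0.64 to 0.95). Shank2 was at 12.3 and 18.7 cRPKM in WT P1, 49.6 and 30.4 in WT P10 and 38.5, 34.5 and 30.1 in WT P30 libraries. It was the 1 member called in P10 against P1 (11.1% of the 9, beside 4.05% of all genes called, 2.2% higher and 1.85% lower), at 1.30 ± 0.28 (limma adjusted p = 0.0199). That call was lost without WT P1 library 8 (adjusted p = 0.201), without WT P10 library 5 (adjusted p = 0.191) and in a fit of the 2 groups alone (adjusted p = 0.233). In P30 against P1 Shank2 was higher by 1.12 ± 0.25 (limma adjusted p = 0.00574), lost without WT P1 library 8 (adjusted p = 0.0814). Shank1 was at 32.7 and 37.9, 29.5 and 27.1, and 35.3, 35.4 and 28.1 cRPKM at the 3 ages and passed no comparison. As shares of the summed Shank expression in wild type, Shank1 averaged 58.8% at P1, 34.7% at P10 and 34.1% at P30, and Shank3 averaged 15.7%, 17.8% and 30.3%.

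Lrrc7 had the opposite sign. It was the lowest of the 9 genes in every group, at 2.12 and 2.21 cRPKM in WT P1, 1.92 and 1.82 in WT P10 and 0.31, 0.37 and 0.22 in WT P30 libraries. The P30 libraries lay below all the others of wild type. On log2(cRPKM + 1), which compresses low values, the difference of P30 against P1 was -1.29 ± 0.46 (limma adjusted p = 0.0592). Junction reads normalised to the library total of the same reads (RPM) gave 28.3 and 31.4, 27.5 and 23.2, and 1.34, 2.43 and 2.55 RPM at the 3 ages, a log2 difference of -3.33 between P30 and P1 (limma adjusted p = 2.74e-09). KO P1 library 15 lists Lrrc7 at 0 cRPKM, yet holds 19.9 junction RPM for it.

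In P30 against P10 in wild type, 4 of the 9 genes (44.4%) were higher, Dlg1, Dlg4, Shank3 and Dlgap1, and 0 lower. Of all tested genes, 14.7% were called, 5.02% higher and 9.73% lower. Lrrc7 did not pass there, at -1.14 ± 0.46 (limma adjusted p = 0.125). In 5 other settings, libraries left out not counted, Lrrc7 reached -3.10 and was called lower in 2. In KO P10 against KO P1, 0 of 9 passed (limma), beside 10.2% of all genes called, 5.58% higher and 4.59% lower; 4 had an unadjusted p below 0.05. These were Dlg1 at 0.87, Shank2 at 0.61, Lrrc7 at 0.89 and Dlgap1 at 0.40 on the log2 scale. Dlg1 was at 0.45 without KO P1 library 15, 1.17 without KO P1 library 14 (limma adjusted p = 0.0274) and 0.27 on junction reads, and Lrrc7 was at 0.41 to 1.22 with 1 library left out. On junction reads Shank2 at 0.57 and Dlgap1 at 0.38 passed (limma adjusted p = 0.0409 and 0.0306). On junction reads Lrrc7 took the other sign there, at -0.30 (limma adjusted p = 0.277).

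The order of the levels differed between groups, with Lrrc7 last in each. Dlg4 and Dlg2 had the highest means in KO P1, KO P10, WT P1 and WT P10, and Dlg4 and Dlgap1 in WT P30. By mean, Dlgap1 was in place 2 in WT P30 and 5 in WT P1, Dlg1 in place 4 in WT P30 and 8 in WT P1, and Dlg3 in place 8 in WT P30 and 4 in WT P1. Dlg2 (55.8 ± 0.24 cRPKM) and Dlg4 (55.4 ± 14 cRPKM) overlapped in WT P10 (SD, n = 2), where Dlg4 also overlapped with Shank2, as Dlg2 did with Shank1 in WT P1. So did Dlg4 (83.7 ± 4.4 cRPKM) and Dlgap1 (75.5 ± 7.8 cRPKM) in WT P30 (n = 3). Dlg1, Shank2, Shank1 and Shank3 overlapped with their neighbours in WT P30, at means of 37.1, 34.4, 32.9 and 29.3 cRPKM. Among 9574 other genes averaging 5 cRPKM or more, the profile over the 5 group means nearest to that of Dlgap1 belonged to Tob2, Tspan9 and the AMPA receptor subunit gene Gria1, at root mean square differences of 0.05, 0.05 and 0.06 on the log2 scale. Camta1 was nearest to Dlg4 (0.02), Abcg1 was among the nearest to Dlg1 (0.09), Chpt1 was nearest to Shank3 (0.07) and Bax was nearest to Lrrc7 (0.08). The Lrrc7 profile held low cRPKM values, which log2(cRPKM + 1) compresses, and the 0 cRPKM of KO P1 library 15. Whether Bax stays nearest on junction reads was not tested.

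Loss of Sam68 gave no called change in the level of any of the 9 genes. In KO P1 against WT P1, 0 of 9 passed (limma), beside 0.0356% of all genes, and 0 had an unadjusted p below 0.05. In KO P10 against WT P10, 0 of 9 passed, beside 0.00711% of all genes, and 3 had an unadjusted p below 0.05, all lower in KO. Shank2 was at 22.9, 19.3 and 28.2 cRPKM in KO P10, against 49.6 and 30.4 cRPKM in WT P10 libraries, a log2 difference of -0.72 ± 0.25. Without WT P10 library 5 this was -0.38, without WT P10 library 6 it was -1.06, and on junction RPM the 2 genotypes overlapped (116, 80.0 and 154 in KO, against 183 and 143 in WT). Dlg2 was at 42.5, 35.4 and 44.6 cRPKM in KO P10, against 55.9 and 55.6 in WT P10, a difference of -0.45 ± 0.15. Shank3 was at 11.62, 8.66 and 8.88 cRPKM in KO P10, against 18.3 and 11.63 in WT P10, so the nearest libraries of the 2 genotypes were almost equal, with a difference of -0.55 ± 0.25. It was -0.25 without WT P10 library 5 and -0.86 without WT P10 library 6. All 3 had a limma adjusted p of 0.884.

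Libraries of KO and WT did not overlap in cRPKM for 3 of the 9 genes at P1 (33.3%, beside 18.5% of all tested genes). At P10 they did not overlap for 6 of 9 (66.7%, beside 19% of all tested genes). At P1 these were Dlg4, Shank3 and Lrrc7, all lower in KO. At P10 Dlg2, Shank1, Shank2, Shank3 and Dlgap1 were lower in KO and Lrrc7 was higher. Shank3 was lower in KO at both ages, the only member that kept 1 direction, which holds for 1.88% of all tested genes. On junction reads its genotypes overlapped at P1 (66.3, 90.4 and 64.4 RPM in KO, against 88.3 and 84.1 in WT). Lrrc7 was lower in KO at P1 and higher at P10 in cRPKM. On junction reads Lrrc7 was lower in KO at P10 too, at 17.9, 18.5 and 22.1 RPM, against 27.5 and 23.2 in WT. The difference between the KO effects at P10 and at P1 was called for 0 of 9 genes (limma; 0.0142% of all genes), and 1 member, Dlg2 at -0.62, had an unadjusted p below 0.05 (limma adjusted p = 0.854). Summed oligodendrocyte markers (5 of 5) gave 4.28 to 29.0 cRPKM in KO P1, against 36.9 to 53.5 cRPKM in WT P1, and overlapped at P10, with 1370 to 2667 cRPKM in KO, against 1557 to 1902 cRPKM in WT. The 4 of 4 choroid plexus markers gave 277 to 655 cRPKM in KO P10, against 1.94 to 277 cRPKM in WT P10, ranges that meet at 277, and overlapped at P1, with 0 to 246 cRPKM in KO, against 3.61 to 13.8 cRPKM in WT. The 6 of 6 midbrain and caudal hindbrain markers gave 0 to 10.8 cRPKM in KO P1, against 12.4 to 14.7 cRPKM in WT P1, and overlapped at P10. The 5 of 5 microglia markers gave 79.1 to 88 cRPKM in KO P10, against 60.2 to 74.3 cRPKM in WT P10, and overlapped at P1. Each of the other marker lists overlapped between genotypes at both ages. The part of these shifts in the genotype differences was not tested.

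**Figure D2:**
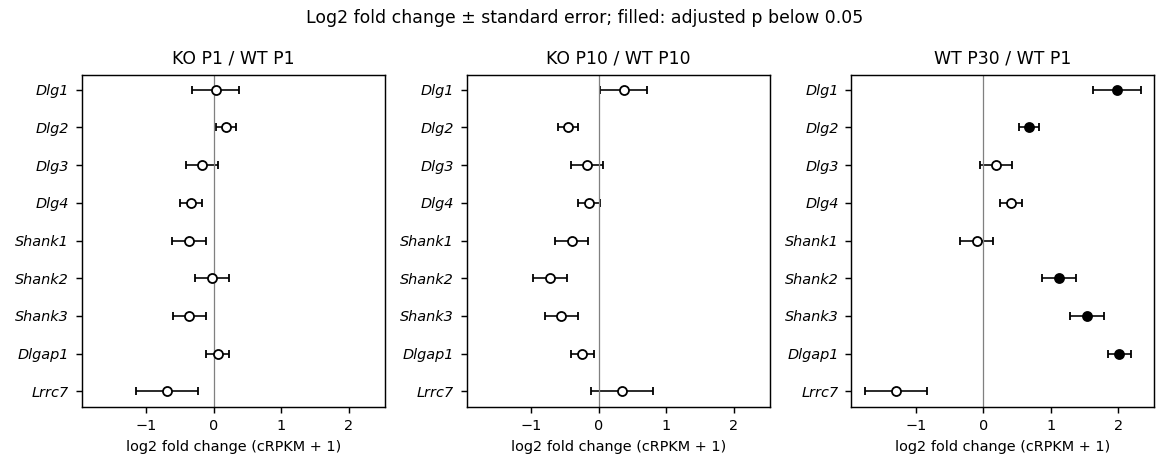
Log2 fold change on the log2(cRPKM + 1) scale (x axis) with its standard error for each of the 9 genes (y axis), in KO over WT at P1 and at P10 and in WT P30 over WT P1; filled points passed adjusted p below 0.05. Filled points appear only in the age comparison, for Dlg1, Dlg2, Shank2, Shank3 and Dlgap1.

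Exon inclusion in the scaffold genes also changed with age, in both directions. PSI, the percent of reads that include an exon or retain an intron, could be tested for 68 of the 278 events. Of the rest, 154 had a mean PSI below 5, 28 a mean above 95, 17 added no length, 10 had fewer than 4 libraries with 10 reads and 1 lacked values in a group. Events of a gene share its transcripts, so they are not independent. In WT P30 against WT P1, 20 of 54 tested events (37%) passed limma at adjusted p below 0.05 with at least 10 points of PSI, beside 9.93% of all tested events. Of these, 11 had higher and 9 lower inclusion, beside 6.08% and 3.85% of all events. In WT P30 against WT P10 it was 13 of 57 (22.8%, beside 2.93%; the P30 libraries are shared with the P1 comparison), 6 higher and 7 lower, beside 2.03% and 0.893%. In WT P10 against WT P1 it was 4 of 64 (6.25%, beside 0.642%), 1 higher and 3 lower, beside 0.355% and 0.287%. In KO P10 against KO P1 it was 6 of 63 (9.52%, beside 0.842%), 3 higher and 3 lower, beside 0.445% and 0.396%.

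Over all comparisons 21 of 68 events (30.9%) were called at least once, beside 9.21% of all tested events. They were 17 of 37 tested exons (45.9%, beside 16.3% of all exons), 4 of 22 tested introns (18.2%, beside 7.01%) and 0 of 9 alternative splice sites (beside 3.96%). By gene these were 5 of 6 tested events in Dlg2, 4 of 10 in Dlg1, 4 of 10 in Shank2, 3 of 9 in Shank3, 2 of 6 in Shank1 and 1 each in Dlg3, Dlg4 and Dlgap1. None of the 12 tested events of Lrrc7 was called, but 1 of them had the reads to enter each of the P30 comparisons, where most calls arose. The length was a multiple of 3, which keeps the reading frame, in 11 of the 17 called exons (64.7%), 9 of the 20 tested exons that were not called (45%) and 45.2% of 11945 tested exons of all genes. The other called exons include the Dlg1 exons of 97 and 34 nt and the Dlg2 exons of 100 and 46 nt. Exchange within each of these pairs would change the length by a multiple of 3, so the count of single exons does not describe such a switch.

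Dlg2 gave the largest shift. Its 42 nt exon (chr7:99569142-99569183 on mm9, plus strand, read from a GENCODE transcript without a coding annotation) has the following sequence.
Dlg2 42 nt exon: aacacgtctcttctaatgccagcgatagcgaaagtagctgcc

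This exon was included at 85.8% and 83.3% in WT P1, 17.9% and 23.1% in WT P10 and 1.3%, 0.8% and 0.9% in WT P30 libraries, on 367 to 1172 reads per library. The ages did not overlap. The differences were -64.0 points in P10 against P1 (limma adjusted p = 3.5e-05) and -83.6 points in P30 against P1 (adjusted p = 8.65e-09). KO libraries were at 85.6%, 76.7% and 81.3% at P1 and 19.5%, 22.4% and 26.1% at P10, a difference of -58.5 points between the ages (limma adjusted p = 8.41e-06). The exon lies within an intron of 9557 nt, so the 2 events are not independent, and whether the intron value only follows the exon was not tested. This intron was scored as retained at 33.3% and 37.1%, 5.5% and 4.9%, and 0.8%, 1.3% and 0.9% at the 3 wild-type ages, on 30 to 536 reads. Its difference in P10 against P1 was -30.0 points (limma adjusted p = 0.00519), lost without WT P10 library 5 (adjusted p = 0.0589) and in a fit of the 2 groups alone (adjusted p = 0.0598). A 156 nt exon of Dlg2 (chr7:99145676-99145831) was included at 97.5 ± 1.8% in WT P1 (SD, n = 2), 71.2 ± 3.4% in WT P10 (n = 2) and 25.3 ± 1.2% in WT P30 (n = 3). Its sequence is the following, from a coding transcript.
Dlg2 156 nt exon: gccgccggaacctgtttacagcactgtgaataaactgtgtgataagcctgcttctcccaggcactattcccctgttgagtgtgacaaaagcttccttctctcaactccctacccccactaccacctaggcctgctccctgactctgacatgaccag

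The 156 nt exon of Dlg2 differed by -72.2 points between P30 and P1 (limma adjusted p = 4.2e-07), and it averaged 97.3 ± 0.8% in KO P1 and 76.5 ± 3.1% in KO P10 (n = 3 each).

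**Figure D3:**
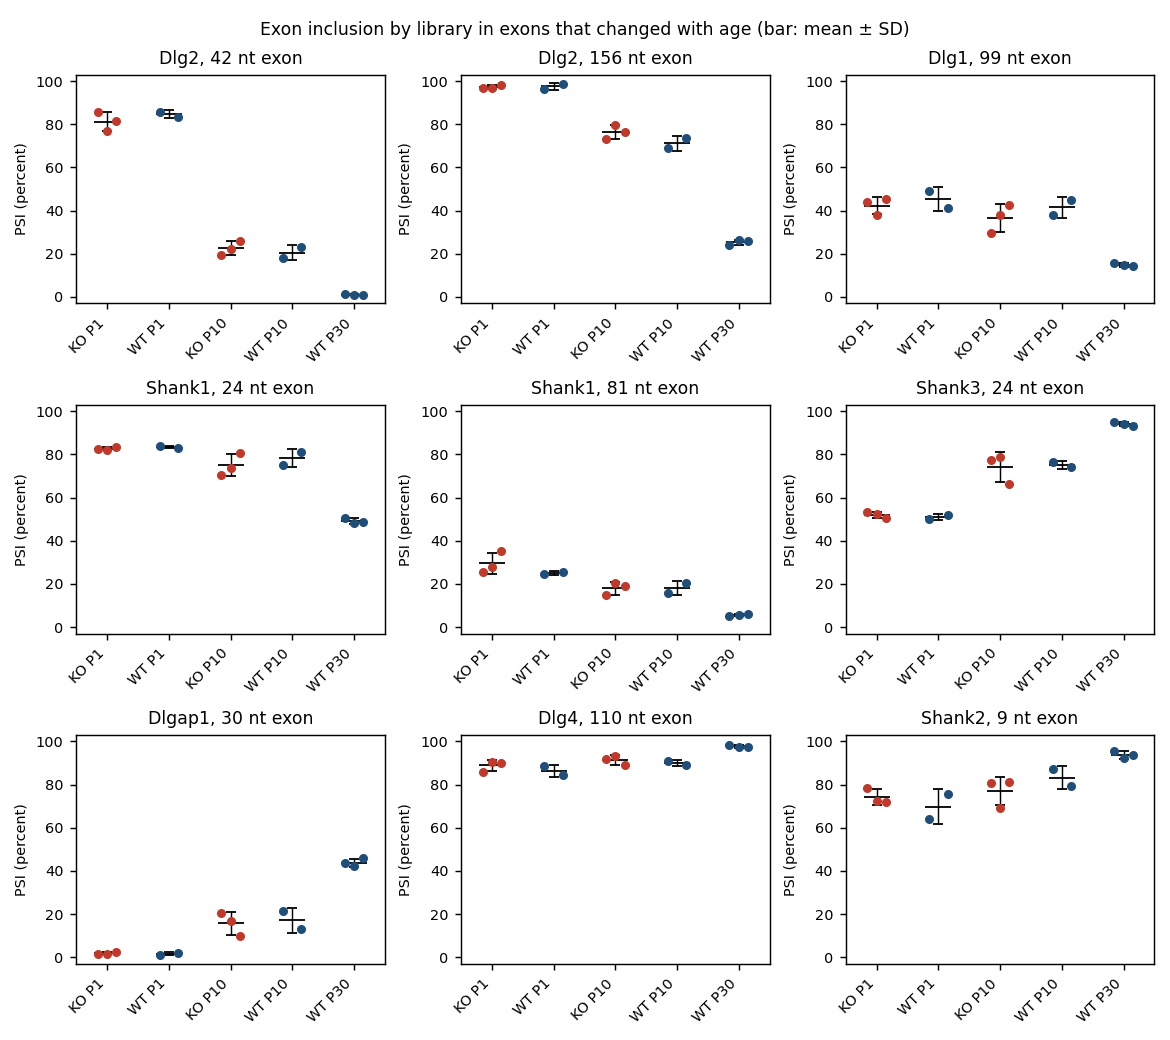
PSI in percent (y axis, 0 to 100) of 9 exons called with age, in every library of the 5 groups (x axis); red points are KO and blue points WT, with black bars for the mean ± SD. The Dlg2 42 nt exon drops from P1 to P10 in both genotypes, and the 24 nt exons of Shank1 and Shank3 move in opposite directions with age.

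The matching exons of Dlg1 and Dlg2 printed above moved the same way late in development. The Dlg1 97 nt exon was included at 52.8% and 67.1% in WT P1, 53.8% and 55.9% in WT P10 and 23.5%, 22.7% and 26.9% in WT P30 libraries, on 158 to 752 reads over all libraries. All P30 libraries lay below the younger ones, with -35.6 points against P1 (limma adjusted p = 0.000629) and -30.5 points against P10 (adjusted p = 0.00461). The call against P10 was lost without WT P10 library 6 (adjusted p = 0.0635). The Dlg2 100 nt exon was at 18.5% and 17.2%, 13.8% and 16.2%, and 3.0%, 2.3% and 2.3% at the 3 ages, with -15.3 points in P30 against P1 (limma adjusted p = 7.94e-06).

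The downstream exon rose in both genes. The Dlg2 46 nt exon was at 79.4% and 85.0% in WT P1, 87.3% and 83.0% in WT P10 and 97.3%, 98.0% and 97.6% in WT P30 libraries, with 15.5 points in P30 against P1 (limma adjusted p = 1.6e-05). The Dlg1 34 nt exon was at 66.6% and 55.5%, 60.2% and 63.1%, and 82.8%, 82.5% and 79.1%. It rose by 20.5 points in P30 against P1 (limma adjusted p = 0.00427), a call lost without WT P1 library 9 (adjusted p = 0.0629), and by 19.8 points against P10, lost without either WT P10 library (adjusted p = 0.0787 and 0.0891) and with a wider PSI range (adjusted p = 0.0815). In Dlg2 the 2 inclusion levels added up to 97.9 to 102.2% in every library. In Dlg1 they added up to 105.2 to 136.8%, with a mean of 105.8 ± 0.6% in WT P30 (SD, n = 3) and 121.0 ± 2.2% in WT P1 (n = 2).

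The corresponding Dlg3 exons, named here for their sequence after their values were seen, differed little with age. The Dlg3 100 nt exon was at 5.68% and 9.58% in WT P1, 3.71% and 4.84% in WT P10 and 7.91%, 7.19% and 9.27% in WT P30 libraries, a difference of 0.5 points between P30 and P1 (limma adjusted p = 0.844). The Dlg3 46 nt exon averaged 91.8% in WT P1, 92.5% in WT P10 and 94.8% in WT P30, with 2.9 points between P30 and P1 (limma adjusted p = 0.4). Whether Dlg3 differs from Dlg1 and Dlg2 in this was not tested.

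**Figure D4:**
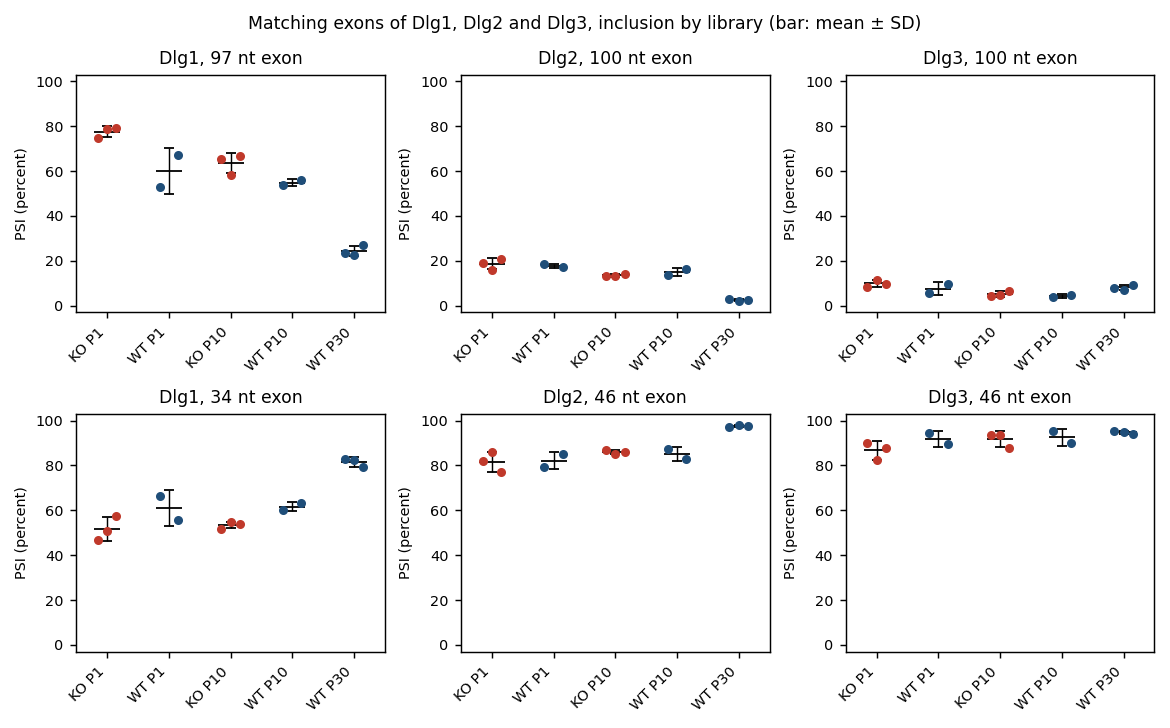
PSI in percent (y axis, 0 to 100) of the first (top) and second (bottom) exon of the matching pair in Dlg1, Dlg2 and Dlg3, in every library of the 5 groups (x axis); red points are KO and blue points WT, with black bars for the mean ± SD. In WT P30 the upper exon is lowest and the lower exon highest for Dlg1 and Dlg2, while the group means of the Dlg3 exons lie between 4.3% and 9.9% for the upper and between 86.7% and 94.8% for the lower.

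Further exons of Dlg1 also changed. A 99 nt exon (chr16:31771843-31771941) was at 49.1% and 41.3% in WT P1, 38.0% and 44.97% in WT P10 and 15.6%, 14.5% and 14.2% in WT P30 libraries, with -30.4 points in P30 against P1 (limma adjusted p = 0.000622). Against P10 it differed by -26.7 points (limma adjusted p = 0.00324), lost without WT P10 library 6 (adjusted p = 0.0636). A 21 nt exon (chr16:31854754-31854774) was at 37.8% and 26.0%, 28.1% and 30.7%, and 54.9%, 48.1% and 46.4%. It rose by 17.9 points in P30 against P1 (limma adjusted p = 0.0273) and by 20.4 points against P10 (adjusted p = 0.0323). The call against P10 was lost on leaving out any 1 library of either group (adjusted p = 0.0632 to 0.167), and that against P1 without WT P1 library 9 (0.245) or any 1 WT P30 library (0.0505 to 0.0773). Both were also lost with a wider PSI range (0.148 and 0.0904).

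Dlg4 had 5 tested events, of which a 110 nt exon (chr11:69857160-69857269 on mm9, plus strand) was called. This is exon 18 of the 20-exon coding transcripts of Dlg4 in GENCODE, and exon 17 of 19 or 20 of 22 in its other coding transcripts. Exon 18 of Dlg4 is known to be held back by the polypyrimidine tract-binding proteins Ptbp1 and Ptbp2 in cells that are not mature neurons. Transcripts without it are degraded. The name exon 18 is matched here through the 20-exon numbering.
Dlg4 110 nt exon: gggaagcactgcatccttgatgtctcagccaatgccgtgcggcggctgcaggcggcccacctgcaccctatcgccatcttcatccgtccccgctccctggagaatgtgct

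Its inclusion was 88.4% and 84.4% in WT P1, 91.1% and 89.0% in WT P10 and 98.35%, 97.6% and 97.2% in WT P30 libraries, on 921 to 2160 reads. P30 lay above both younger ages, by 11.3 points against P1 (limma adjusted p = 9.77e-05), which fell to 9.3 points, below the 10 points required, without WT P1 library 9. KO libraries were at 85.9%, 90.7% and 90.1% at P1 and 91.7%, 93.3% and 88.9% at P10, overlapping WT at both ages. Ptbp1 was at 53.6 and 79.8 cRPKM in WT P1, 60.9 and 69.9 in WT P10 and 17.2, 21.3 and 16.6 in WT P30 libraries. Ptbp2 averaged 66.45 ± 2.29 cRPKM in WT P1 (SD, n = 2), 69.2 ± 11.2 in WT P10 (n = 2) and 37.6 ± 6.62 in WT P30 (n = 3). The part of either gene in the exon's change was not tested.

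The 24 nt exons of Shank1 and Shank3 printed above moved in opposite directions. The Shank3 exon was at 50.1% and 52.1% in WT P1, 76.3% and 73.9% in WT P10 and 94.9%, 94.0% and 93.1% in WT P30 libraries, on 197 to 1356 reads. The ages did not overlap, with 42.9 points in P30 against P1 (limma adjusted p = 3.82e-06) and 18.9 points against P10 (adjusted p = 0.000721). KO libraries were at 53.1%, 52.5% and 50.5% at P1 and 77.2%, 78.8% and 66.4% at P10. That rise of 22.1 points passed (limma adjusted p = 0.0222) but was lost without KO P1 library 13, 14 or 15, without KO P10 library 10 or 11 (adjusted p = 0.0631 to 0.112), with a wider PSI range (0.134) and in a fit of the 2 groups alone (0.174).

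The Shank1 24 nt exon was at 83.8% and 83.0% in WT P1, 75.2% and 81.1% in WT P10 and 50.5%, 48.3% and 48.5% in WT P30 libraries, on 171 to 428 reads. It fell by 34.4 points in P30 against P1 (limma adjusted p = 0.000292) and by 29.1 points against P10 (adjusted p = 0.00389), the second lost without WT P10 library 6 (adjusted p = 0.0787). An 81 nt exon of Shank1 (chr7:51611488-51611568) averaged 25.1 ± 0.8% in WT P1 (SD, n = 2), 18.2 ± 3.1% in WT P10 (n = 2) and 5.5 ± 0.3% in WT P30 (n = 3). It fell by 19.5 points in P30 against P1 (limma adjusted p = 7.23e-05).

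Shank2 had 4 called events, all in P30 against P1. A 9 nt exon (chr7:151582543-151582551) was at 63.9% and 75.6% in WT P1, 87.1% and 79.3% in WT P10 and 95.8%, 92.1% and 93.5% in WT P30 libraries, on 34 to 167 reads. A 21 nt exon (chr7:151593961-151593981) was at 69.9% and 87.3%, 96.4% and 93.8%, and 100%, 97.04% and 97.6%, on 20 to 144 reads. Their rises of 24.1 points (limma adjusted p = 0.00406) and 19.6 points (adjusted p = 0.00852) were both lost without WT P1 library 8, at 18.2 points (adjusted p = 0.0626) and 10.9 points (adjusted p = 0.111). The 112 nt exon just upstream of the 21 nt exon varied widely within groups, with 86.4%, 89.3% and 36.3% in KO P10 and 42.9% and 84.8% in WT P1. Its call (33.4 points, limma adjusted p = 0.0417) was lost without WT P1 library 8 (12.5 points), without any 1 WT P30 library (adjusted p = 0.0649 to 0.111), with a test on PSI itself (adjusted p = 0.235) and with a wider PSI range (adjusted p = 0.0674). The 1660 nt intron upstream of it was retained at 13.6% and 14.4% in WT P1, 4.2% and 10.2% in WT P10 and 1.23%, 2.43% and 0.7% in WT P30 libraries, a fall of 12.5 points in P30 against P1 (limma adjusted p = 0.00353).

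In Shank3, 2 introns had higher retention in P30. The intron of 15646 nt (chr15:89335888-89351533) was at 1.4% and 2.3% in WT P1, 5.5% and 2.4% in WT P10 and 15.2%, 17.2% and 19.6% in WT P30 libraries, on 36 to 109 reads, with 15.5 points in P30 against P1 (limma adjusted p = 0.00394). Its 13.4 points against P10 (limma adjusted p = 0.0297) were lost without WT P10 library 6 (adjusted p = 0.366), without any 1 WT P30 library (0.0596 to 0.102), with a wider PSI range (0.0875) and in a fit of the 2 groups alone (0.0867). The intron of 295 nt (chr15:89330351-89330645) was at 21.9% and 19.0%, 33.9% and 29.8%, and 63.6%, 50.6% and 42.3%, on 26 to 74 reads. Its 31.7 points in P30 against P1 (limma adjusted p = 0.0314) were lost without WT P1 library 8 or 9, WT P30 library 1 or 2 (adjusted p = 0.0607 to 0.152), with a wider PSI range (0.0616) and in a fit of the 2 groups alone (0.063).

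In Dlgap1 a 30 nt coding exon (chr17:71067536-71067565 on mm9, plus strand) was called in 4 comparisons.
Dlgap1 30 nt exon: gtgtcataaaactgagttctgccgttgaag

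It was included at 1.1% and 2.0% in WT P1, 21.3% and 13.03% in WT P10 and 43.5%, 42.2% and 45.8% in WT P30 libraries, on 619 to 3488 reads. The ages did not overlap, with 42.3 points in P30 against P1 (limma adjusted p = 1.39e-06). In P30 against P10 it was 26.7 points (limma adjusted p = 0.0113), lost without WT P10 library 6 (adjusted p = 0.192), and in P10 against P1 it was 15.6 points (adjusted p = 0.000969), lost with a test on PSI itself (adjusted p = 0.0547). KO libraries were at 1.7%, 1.7% and 2.6% at P1 and 20.5%, 16.6% and 9.9% at P10, a rise of 13.7 points (limma adjusted p = 0.000417) that overlapped WT at both ages.

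Among the 3 events of widest range in each gene, 13 were not called in any comparison, among them the 120 nt exon of Lrrc7 described with the knockout comparisons. The widest was the 2652 nt intron of Shank3, at 15.8% and 40% in WT P10 and 66.7%, 93.9% and 83.3% in WT P30 libraries, on 11 to 35 reads. Its difference of 53.4 points did not pass (limma adjusted p = 0.111), and only 1 library of the younger groups other than WT P10 reached 10 reads. The 6169 nt intron of Lrrc7 was at 29.0% and 84.6% in WT P10, against 26.3% and 50% in WT P1, on 12 to 24 reads, a difference of 18.7 points (limma adjusted p = 0.775). A 15 nt acceptor extension of Dlg1 was at 83.5%, 60.9% and 60.9% in KO P10, against 50.5%, 40.5% and 53.1% in KO P1, a difference of 20.4 points (limma adjusted p = 0.388).

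The 823 nt intron of Shank2 was retained at 8.95%, 36.4% and 14.6% in WT P30, against 64.9% and 16.9% in WT P1, with the libraries of the 2 ages overlapping, and the difference was -20.9 points (limma adjusted p = 0.293). The 42 nt exon of Dlg3 (chrX:98006841-98006882) was at 67.2% and 58.8% in WT P1, 59.8% and 66.0% in WT P10 and 59.9%, 51.1% and 50.2% in WT P30 libraries, and it aligned to the Dlg2 42 nt exon at 26 bases. Its difference of -9.3 points between P30 and P1 did not pass (limma adjusted p = 0.31). In Lrrc7 the 141 nt exon was at 67.6%, 58.3% and 58.1% in KO P1, against 48% and 57.5% in WT P1, and at 40.7%, 55.9% and 51.1% in KO P10, against 42.9% and 37.3% in WT P10. Its differences of 8.6 points at P1 and 9.1 points at P10 did not pass (limma adjusted p = 1 at both ages), its genotypes overlapped at P10, and 3 to 11 reads covered it in WT P30 libraries.

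The 109 nt and 93 nt exons of Dlgap1 gave differences of 8.1 and 3.1 points between WT P30 and WT P1 (limma adjusted p = 0.3 and 0.435), and the 66 nt exon of Dlg4 by 3.1 points (adjusted p = 0.349). A 9 nt acceptor extension of Dlg4 differed by -6.1 points (limma adjusted p = 0.0804), the 2606 nt intron of Dlg3 by -7.1 points (adjusted p = 0.071) and the 414 nt intron of Shank1 by 2.2 points (adjusted p = 0.831). That Shank1 intron was at 21.5%, 8.7% and 2.15% in KO P10, against 1.93% and 0% in WT P10, on 12 to 53 reads, a difference of 9.8 points (limma adjusted p = 0.998).

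Loss of Sam68 gave no called splicing change in these genes, which does not show that none occurred. In KO P1 against WT P1, 0 of 63 events passed (limma), beside 0.0238% of all events, and 4 had an unadjusted p below 0.05. In KO P10 against WT P10, 0 of 65 passed, beside 0.0304% of all events, and 5 had an unadjusted p below 0.05. For the difference of the 2 KO effects, 0 of 62 passed, beside 0% of all events, and 3 had an unadjusted p below 0.05. The KO and WT libraries did not overlap in 10 of 63 events at P1 (15.9%, beside 19.4% of all events) and in 9 of 65 at P10 (13.8%, beside 18.3%). They did not overlap in the same direction at both ages in 3 of 62 events (4.84%, beside 3.12%): exons of Lrrc7, Dlg1 and Dlg3.

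The Lrrc7 exon of 120 nt (chr3:157811544-157811663 on mm9, minus strand, coding) showed the largest of these differences.
Lrrc7 120 nt exon: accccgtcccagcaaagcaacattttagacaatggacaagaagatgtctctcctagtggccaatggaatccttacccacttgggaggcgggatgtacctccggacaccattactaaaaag

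Its inclusion was 95.5%, 95.2% and 96.0% in KO P1, against 69.0% and 79.3% in WT P1, and 98.2%, 100% and 96.8% in KO P10, against 81.7% and 79.2% in WT P10 libraries. WT P30 libraries were at 84.6%, 54.5% and 87.5% on 12 to 17 reads, and the other libraries had 99 to 169 reads. All KO libraries lay above all WT libraries. The differences of 21.4 points at P1 (limma adjusted p = 0.763) and 17.9 points at P10 (limma adjusted p = 0.317) did not pass, though both had an unadjusted p below 0.05. With 1 library left out, the adjusted p ranged from 0.656 to 1 at P1 and from 0.144 to 1 at P10.

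The Dlg1 97 nt exon was at 74.9%, 78.6% and 79.1% in KO P1, against 52.8% and 67.1% in WT P1, a difference of 17.6 points (limma adjusted p = 0.647), which was 10.5 points without WT P1 library 8 and 24.7 points without WT P1 library 9. At P10 it was at 65.5%, 58.4% and 66.9% in KO, against 53.8% and 55.9% in WT, a difference of 8.7 points (limma adjusted p = 1). The Dlg3 54 nt exon went the other way, at 5.41%, 6.69% and 10.3% in KO P1, against 15.1% and 11.99% in WT P1, and 22.8%, 24.8% and 19.4% in KO P10, against 34% and 31.5% in WT P10 libraries. Its differences of -6.1 and -10.4 points did not pass (limma adjusted p = 0.983 and 1). In KO P10 against KO P1 the same exon rose by 14.9 points (limma adjusted p = 0.00889), lost with a wider PSI range (adjusted p = 0.0684) and in a fit of the 2 groups alone (adjusted p = 0.0983), and the 19.2 points in WT P10 against WT P1 did not pass (adjusted p = 0.0702).

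**Figure D5:**
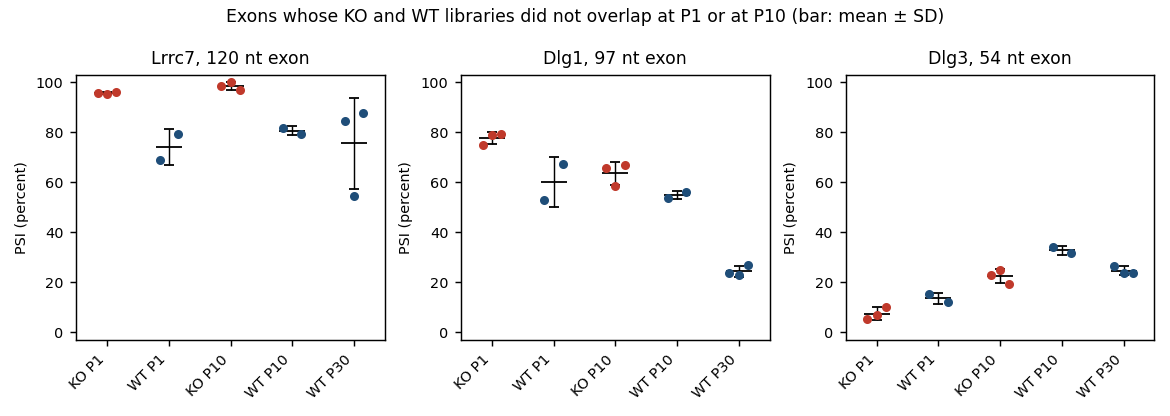
PSI in percent (y axis, 0 to 100) of the 3 exons whose KO and WT libraries did not overlap in the same direction at both ages, in every library of the 5 groups (x axis); red points are KO and blue points WT, with black bars for the mean ± SD. KO points lie above WT for the Lrrc7 and Dlg1 exons and below for the Dlg3 exon at both ages, and none of these differences passed the adjusted test.

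The partners of these scaffolds moved in both directions with age. In WT P30 against WT P1, 8 of 18 PSD-95 and Shank partner genes were higher and 2 lower (limma), with a median log2 fold change of 0.36, against -0.13 over all genes, beside 9.66% and 15.8% of all genes called higher and lower. They included Anks1b at 1.65 and Tanc1 at 1.99, both scaffold-associated ankyrin repeat proteins, and the actin-binding Cttn at -1.16 and Tanc2 at -1.84. Of the 3 Homer genes, which bind Shank, Homer3 rose by 3.45 (limma adjusted p = 1.41e-05), Homer2 fell by 1.57 (adjusted p = 0.00468), and Homer1 did not pass. None of the 3 other Dlgap genes passed, with a median of -0.30, beside the 2.01 of Dlgap1; the difference itself was not tested. Among 17 measured MAGUK and PDZ scaffolds outside the 9, 3 were higher and 6 lower, with Lin7a at 2.68, Mpp3 at 1.91, Cask at -1.15 and Grip1 at -2.24.

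Of 12 glutamate receptor genes, whose products the Dlg proteins anchor, 6 were higher and 2 lower in WT P30 against WT P1, with a median of 1.13. The AMPA receptor subunit genes Gria4 and Gria1 had log2 fold changes of 1.95 and 1.89. Among 11 regulators of neuronal exons, 2 were higher and 8 lower, with a median of -0.98. They included Rbfox3 at 2.14, Ptbp1 at -1.79, Khdrbs3 at -2.15 and Nova2 at -1.53. In KO against WT, no gene of these lists passed at P1 or P10 except Khdrbs1 itself. Its log2 fold change was -3.27 at P1 (limma adjusted p = 0.00112) and -4.23 at P10 (adjusted p = 0.000192). Khdrbs2, another of the 11 regulators, did not pass, but its KO libraries lay above WT at both ages. It was at 32.7, 31.51 and 39.87 cRPKM in KO P1, against 14.24 and 13.84 in WT P1. At P10 it was at 16.42, 25.21 and 15.16 cRPKM in KO, against 6.46 and 10.01 in WT. In splicing of KO against WT, 1 of 8 tested events of inhibitory synapse scaffold genes was called at P1 and 1 of 8 at P10 (limma). Of all tested events, 0.0238% were called at P1 and 0.0304% at P10. Whether both calls fell on the same event is not given here. No event of the other lists was called.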

How the data were processed

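RNA of 13 cerebellum libraries was sequenced as stranded mRNA libraries, as the labels state. The authors ran FastQC and Trimmomatic and used mm9, per the submitters' processing notes; which aligner they used is not given in the sources used here. The authors deposited cRPKM, an RPKM corrected for mappable length, for each gene. They also deposited PSI as a percent for each event, with a text field of read numbers for inclusion and exclusion. The ratio of these reads differed from PSI by at most 0.05 points at 10 or more reads.

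Expression was tested with limma 3.58.1 (R 4.3.3) on log2(cRPKM + 1), keeping genes whose average reached 1 cRPKM in any group. Splicing was tested with limma on the log2 ratio of inclusion to exclusion reads, 0.5 added to each. Events needed 10 reads in a library, a mean PSI of 5 to 95, and usable values from 2 libraries per group. A single fit held all 5 groups, with Benjamini-Hochberg adjustment over every gene or event tested. It was tested on simulated data for WT P30 against WT P1. There the smaller expression changes were often missed, and splicing changes mostly so. KO against WT was not simulated. Genes were called at adjusted p below 0.05 and events also at 10 PSI points. Alternatives changed the pseudocount (0.1), the filters (20 reads, or mean PSI 1 to 99, the wider range), the normalization (quantile, junction reads), the scale (PSI in points), read weights, the groups in the fit and the libraries. All 9 genes were named, with every event called and up to 3 tested events per gene of widest range. Exons were aligned globally with Biopython 1.88. The members and lists were chosen with earlier results of these data known.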

Additional observations from a re-analysis of the deposited data

How the results depend on the processing

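No paired analysis was possible because the library numbers are not shared between groups. In expression, 10 called values were recomputed in 99 alternative settings: 84 kept direction and call, and 15 lost the call. In splicing, 43 called values were recomputed in 432 settings: 380 kept both and 52 lost the call. Values that were not called were recomputed only where the unadjusted p was below 0.05. Of 13 such expression values, 124 of 137 settings left them uncalled, 12 passed and 1 reversed, Lrrc7 in KO P10 against KO P1 on junction reads at -0.30 (cRPKM 0.89). In splicing such values were taken only from KO against WT and from the difference of the KO effects, and all 86 settings of these 8 left them uncalled. Uncalled age differences in splicing were not followed singly. The number of events called reached 8 in KO P10 against KO P1 with 1 library left out (6 as reported). It reached 5 in WT P10 against WT P1 in other settings (4 as reported).

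The number of the 9 genes called in WT P10 against WT P1 was 0 in a fit of the compared groups alone and 4 on junction reads (1 as reported), and in KO P10 against KO P1 it was 2 on junction reads (0 as reported). With 1 library left out it ranged from 0 to 1 in both comparisons, from 1 to 4 in WT P30 against WT P10 and from 3 to 5 in WT P30 against WT P1. The number of events called with 1 library left out ranged from 6 to 11 in WT P30 against WT P10 (13 as reported). In settings that kept all libraries, 4 to 6 of the 9 genes were called in WT P30 against WT P10 (4 as reported). In WT P30 against WT P1 it was 5 to 7 (5 as reported). The causes were not tested. Leaving out 1 of 2 libraries leaves a lone library that is assumed to vary like the other groups. Shallow events such as the Lrrc7 exon at P30, on 12 to 17 reads, limit what could be detected.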
